A study of Anser cygnoides with 6 samples.

Results

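Hexokinases carry out the step that traps glucose inside a cell: they transfer a phosphate from ATP to glucose and yield glucose 6-phosphate. In vertebrate liver this product stands at a crossroads, since it can be stored as glycogen, burned in glycolysis, oxidised in the pentose phosphate pathway, or turned back into free glucose by glucose-6-phosphatase. Ketohexokinase does the corresponding step for fructose. The mRNAs described here are the gene models of the liver mRNA table whose description contained the word hexokinase or glucokinase, in any case. There were 8 such models among 21009. The word hexokinase occurred in 7 descriptions and the word glucokinase in 1, and 0 descriptions contained "glucokinase regulatory".

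Livers came from 6 lion-head geese, a large Chinese breed, in 2 groups of 3 birds, with 1 library per bird. All birds were 120 days old at the start, and feeding lasted 38 days. Normally-fed geese ate at will, whereas high-intake-fed geese were force-fed meals several times a day, with boiled rice in the diet, in the manner used to produce foie gras. All birds went without feed for the last night, so every level given here is that of a liver after an overnight fast. The groups were housed in separate isolators, so that feeding and housing cannot be told apart, and the sources used here do not give the sex of the 6 birds. Libraries held 14154910 to 16993373 counts, given below as CPM, that is, scaled to the library's size after trimmed mean of M values (TMM) normalization, and as CPM per kilobase of coding length where different genes are compared. Hepatocyte transcripts were abundant in every library. The 7 models matched to albumin, apolipoproteins, transferrin and fibrinogen beta summed to 235894 to 324491 CPM in normally-fed livers. In high-intake-fed livers the sum was 121436 to 267614 CPM, and the ranges overlapped. Taken singly, transferrin and a fibrinogen beta model were lower in every high-intake-fed bird, an apolipoprotein A1 family model was higher, and the others overlapped. Models for haemoglobin and carbonic anhydrase 2 summed to 213 to 376 CPM in normally-fed and 554 to 897 CPM in high-intake-fed livers, and the 7 tested of these 11 models all had a positive fold change. The leukocyte models (CD74 and lysozyme, 6 models) summed to 525 to 642 CPM in normally-fed and 211 to 427 CPM in high-intake-fed livers. Nearly all of this sum was CD74, at 517 to 637 CPM in normally-fed and 207 to 425 CPM in high-intake-fed livers. Of the lysozyme models 1 was lower in every high-intake-fed bird (3.98 to 4.83 against 1.58 to 3.33 CPM), and the others overlapped. The sum of decorin and desmin was likewise lower in every high-intake-fed bird (241 to 305 against 126 to 182 CPM). So was the sum of the endothelial models (PECAM1 and VWF), at 122 to 172 against 88.9 to 113 CPM. Singly, decorin and the VWF models were lower in every high-intake-fed bird, whereas desmin and PECAM1 overlapped between the groups. Of the 25 marker models tested 0 passed an adjusted p under 0.05 by edgeR's quasi-likelihood test. Over all models tested 0.643% rose and 0.829% fell at this threshold. By the same test 13 of the 25 had an unadjusted p under 0.05, a larger share than the 18.4% of all models tested. DESeq2 called 7 of the 25, also a larger share than the 7.65% of the models to which it gave an adjusted p. The sum of the 2 biliary models (keratin 7 or 19 and EPCAM) and the adipocyte model overlapped between the groups. EPCAM alone did not overlap, at 3.01 to 3.54 CPM in normally-fed and 1.76 to 2.22 CPM in high-intake-fed livers.

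The 8 models are of 4 kinds. Hexokinases with the enzyme number of hexokinase make up 4 of them, and 2 of these lie side by side on scaffold 8 of the genome assembly used by the authors. The model maker-Hic_scaffold_8-augustus-gene-257.3, called hexokinase 8b here, spans positions 25687325 to 25700390 on the minus strand and codes for 2511 bases. The other, hexokinase 8a (maker-Hic_scaffold_8-augustus-gene-256.6), spans 25636904 to 25670652 on the same strand, codes for 2754 bases and ends 16672 bases from hexokinase 8b. A neurokinin receptor model lies on the far side of hexokinase 8a and a model of the mitochondrial RNA helicase SUV3 lies next to hexokinase 8b. In the RefSeq annotation of the Taihu goose, which is a different assembly, the genes TACR2 and SUPV3L1 likewise enclose 2 loci, and neither locus has a gene symbol, so none is given to the models here. The third hexokinase is on scaffold 29 (4699487 to 4718519, plus strand, 2754 coding bases), beside a germ cell-less type model. HK2 lies beside GMCL1 in RefSeq. The fourth is on scaffold 16 (9585369 to 9590306, minus strand, 2964 coding bases) between a model with a death domain and one with a ubiquitin-interacting motif, as HK3 lies between UNC5A and UIMC1 in RefSeq.

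The remaining 4 models phosphorylate other sugars or carry a hexokinase-type signature only. Ketohexokinase, which makes fructose 1-phosphate, is represented by a model on scaffold 3 (10472349 to 10474724, minus strand, 942 coding bases) and by a shorter one on an unplaced contig (127617 to 129448, plus strand, 618 coding bases). Both have a cyclic nucleotide-dependent kinase model as a neighbour, so they may be copies of the same locus and share reads. The model on scaffold 4 described as ROK family with a hexokinase signature (32656520 to 32687850, minus strand, 2265 coding bases) lies next to clathrin light chain A. The RefSeq gene in that place is GNE, the enzyme that starts sialic acid synthesis. The model described as thermoresistant glucokinase family (45239117 to 45244988 on scaffold 4, minus strand, 477 coding bases) carries the enzyme number of gluconokinase (2.7.1.12) and a further number (2.7.1.71). It lies beside a ubiquilin model, where RefSeq has IDNK. The only model found through the word glucokinase was thus annotated, by one of its enzyme numbers, as an enzyme for gluconate.

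Hexokinase 8b was selected on its values in the comparison of the 2 feeding groups, so those values are a description and carry no test. The 3 normally-fed birds had 65, 157 and 42 counts, in order of replicate, and the 3 high-intake-fed birds 776, 16688 and 4025 counts. All series of 3 values below keep this order. As CPM these were 4.31, 9.27 and 2.704 against 53.9, 1058 and 245. Every high-intake-fed liver stood above every normally-fed liver, and the lowest of them was 5.82 times the highest normally-fed value. The mean level was 5.43 ± 3.42 CPM without force-feeding and 452 ± 533 CPM with it (SD, n = 3), a ratio of 83.3. The fitted log2 fold change was 6.38, the fifth highest of the 12914 models tested. In its mean level per kilobase the model moved from rank 10592 of 12914 in normally-fed livers to rank 508 in high-intake-fed livers.

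The size of that difference varied greatly among the force-fed birds. Replicate 2 held 19.6 times the CPM of replicate 1, and in replicate 2 the model took 0.102% of all counts, against 0.00489% in replicate 1 and 0.0280% in replicate 3. The SD of the high-intake-fed group was larger than its mean. Among normally-fed birds the highest, replicate 2, was 3.43 times the lowest, replicate 3. Without high-intake-fed replicate 2 the log2 fold change was 4.77, and without any other single bird it lay between 6.07 and 7.03. The deposited FPKM, which were 0.525, 0.927 and 0.204 in normally-fed and 6.36, 123 and 20.5 in high-intake-fed livers, gave a ratio of group means of 90.8 and kept the order of the birds.

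**Figure D1:**
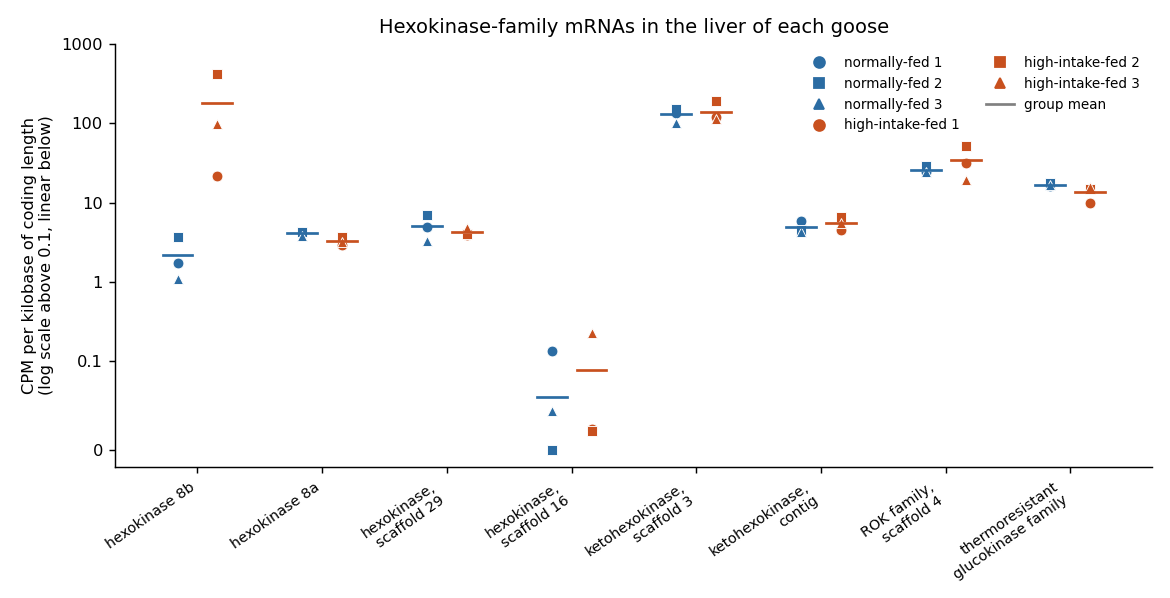
Level of each of the 8 models in CPM per kilobase of coding length (vertical axis, logarithmic above 0.1 and linear below), with normally-fed birds in blue, high-intake-fed birds in orange, a marker shape per replicate and a bar at the group mean. Hexokinase 8b ran from 1.08 to 3.69 in normally-fed and from 21.5 to 421 in high-intake-fed birds. The ROK family model ran from 19.3 to 52.4 over all 6 birds and the barely detected scaffold 16 hexokinase from 0 to 0.225.

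Hexokinase 8a, its neighbour on the same strand, gave 179, 198 and 161 counts in normally-fed and 115, 161 and 144 counts in high-intake-fed livers. In CPM these were 11.9, 11.7 and 10.4 against 7.99, 10.2 and 8.75, so that the groups did not overlap and the direction was the opposite of that of hexokinase 8b. The log2 fold change was -0.33 ± 0.22 (SE), with an adjusted p of 0.471 by edgeR's quasi-likelihood test, and the exact permutation test gave 0.1, the smallest p that 3 birds against 3 allow. This difference did not pass the threshold. Per kilobase, hexokinase 8b stood at 0.398, 0.870 and 0.286 times the level of hexokinase 8a in normally-fed livers, and at 7.401, 114 and 30.7 times in high-intake-fed livers. The order of these adjacent genes was therefore opposite in the 2 groups in all 6 birds, as a consequence of the values hexokinase 8b was chosen by. On the other flank of hexokinase 8b, the SUV3 helicase model, which unwinds RNA in mitochondria, gave 38.4, 38.4 and 46.5 CPM in normally-fed and 63.1, 86.3 and 60.4 CPM in high-intake-fed livers. Those groups did not overlap either, at a log2 fold change of 0.77 ± 0.22 and an edgeR adjusted p of 0.125. Beyond hexokinase 8a, the neurokinin receptor model was near the limit of detection, at 0.278 to 1.01 CPM over the 6 birds, and was not tested.

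The hexokinase on scaffold 29, in the place of HK2, the insulin-responsive muscle form in mammals, was found at 13.5, 19.2 and 9.14 CPM in normally-fed and 10.8, 10.97 and 13.2 CPM in high-intake-fed livers. The high-intake-fed birds lay inside the range of the normally-fed birds. Its log2 fold change was -0.26 ± 0.29, with an edgeR adjusted p of 0.697, and its sign depended on normally-fed replicate 2, without which it was 0.067. The hexokinase on scaffold 16, in the place of HK3, which in mammals is mainly a leukocyte form, was barely detected, with 6, 0 and 2 counts in normally-fed and 1, 1 and 11 counts in high-intake-fed livers. The 0 in normally-fed replicate 2 allows a level of up to 0.177 CPM, that of 3 counts, by counting error only. This model did not pass the filter on low counts and was not tested.

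Summed per kilobase, the 4 hexokinases came to 11.1, 14.9 and 8.20 CPM per kilobase in normally-fed livers and to 28.3, 429 and 106 CPM per kilobase in high-intake-fed livers. Hexokinase 8b made up 15.5%, 24.7% and 13.1% of that sum in normally-fed and 75.8%, 98.2% and 92.2% in high-intake-fed livers. It was thus below hexokinase 8a and the scaffold 29 hexokinase in all 3 normally-fed livers and above them in all 3 high-intake-fed livers, as a consequence of the values it was chosen by. Without it, the other 3 summed to 9.24 ± 2.05 CPM per kilobase in the normally-fed group and 7.59 ± 0.674 in the force-fed group (SD, n = 3), with ranges of 7.13 to 11.2 and 6.86 to 8.19 that overlapped. In bulk tissue a change in the number of cells of a type and a change in RNA per cell cannot be told apart, which holds for each level here. The haemoglobin, leukocyte, fibroblast and endothelial sums and some hepatocyte models given above did not overlap between the groups. Groups did not overlap for 24.4% of all models tested. The sums were not tested, nor was the part of these cell types in the hexokinase levels.

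**Figure D2:**
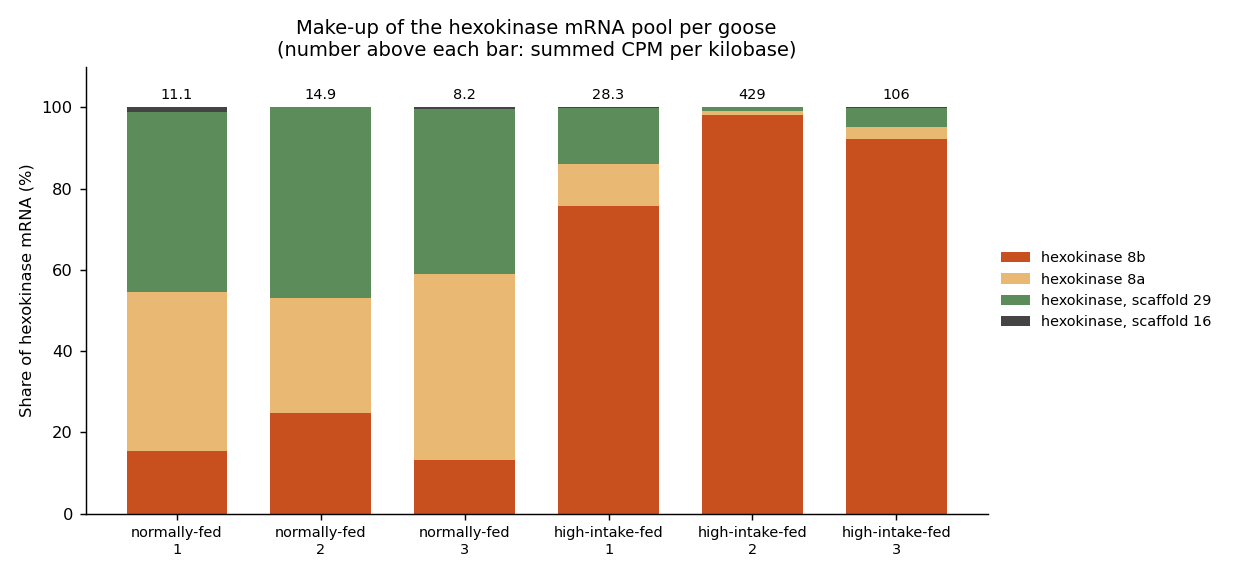
Share of each of the 4 hexokinase models in their summed CPM per kilobase (vertical axis, percent) for each of the 6 geese, with the sum printed above each bar. Hexokinase 8b (orange) held 13.1% to 24.7% in normally-fed and 75.8% to 98.2% in high-intake-fed birds, and the model on scaffold 16 (black) was a trace in every bird.

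Of the 7 models found by description alone, 6 passed the filter on low counts and 0 of these 6 passed an adjusted p under 0.05 by edgeR's quasi-likelihood test, while 0.643% of all models tested rose and 0.829% fell at this threshold. At an unadjusted p under 0.05 the count was also 0 of 6, against 18.4% of all models. DESeq2 likewise called 0 of the 6, against 7.65% of the models to which it gave an adjusted p. The groups did not overlap for 2 of the 6, hexokinase 8a and the thermoresistant glucokinase family model, and for 24.4% of all models tested.

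Ketohexokinase was the most abundant of the 8 models in normally-fed livers. The scaffold 3 model gave 128, 143 and 95.9 CPM in normally-fed and 111.9, 180 and 105.3 CPM in high-intake-fed livers, and the groups overlapped. Its log2 fold change was 0.12 ± 0.28 with an edgeR adjusted p of 0.880, and the sign changed when normally-fed replicate 3 (-0.0077) or high-intake-fed replicate 2 (-0.17) was left out. The copy on the contig gave 3.65, 2.83 and 2.64 CPM against 2.78, 4.12 and 3.46 CPM, with a log2 fold change of 0.18 ± 0.33 and an edgeR adjusted p of 0.824. Its counts were 1.98% to 3.29% of those of the scaffold 3 model in all 6 birds. For this copy the deposited FPKM differed from the counts in direction. They were 0.787, 0.920 and 0.479 in normally-fed and 0.330, 0.234 and 0.158 in high-intake-fed livers, so that by FPKM the ratio of the group means was 0.330 and by CPM 1.14. Because the copies may share reads, its values are uncertain.

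The ROK family model in the place of GNE gave 55.2, 66.1 and 54.7 CPM in normally-fed and 72.3, 119 and 43.8 CPM in high-intake-fed livers. The high-intake-fed birds lay on both sides of the normally-fed range. Its log2 fold change was 0.42 ± 0.34 with an edgeR adjusted p of 0.579, and it was -0.015 without high-intake-fed replicate 2. The thermoresistant glucokinase family model gave 7.77, 8.56 and 7.86 CPM against 4.79, 7.17 and 7.41 CPM. All 3 high-intake-fed birds were below the normally-fed birds, 2 of them by a small margin. Its log2 fold change was -0.32 ± 0.26 with an edgeR adjusted p of 0.578, and the exact permutation test gave 0.1.

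In order of level per kilobase, normally-fed livers held ketohexokinase of scaffold 3 first, at 130 CPM per kilobase, then the ROK family model at 25.9 and the thermoresistant glucokinase family model at 16.9. These 3 did not overlap with each other or with the rest over the 3 birds. Below them the scaffold 29 hexokinase at 5.07, the contig ketohexokinase at 4.92 and hexokinase 8a at 4.11 could not be ordered, since their ranges overlapped. Hexokinase 8b at 2.16 lay below hexokinase 8a in all 3 birds, though its range met that of the scaffold 29 model, and the scaffold 16 model came last at 0.0593. In high-intake-fed livers hexokinase 8b had the highest mean, at 180 CPM per kilobase, ahead of ketohexokinase at 141. Their ranges overlapped, and hexokinase 8b exceeded ketohexokinase in replicate 2 only, at 421 against 191 CPM per kilobase. The ROK family model followed at 34.5, with a range that met that of hexokinase 8b, and the thermoresistant glucokinase family model at 13.5. The contig ketohexokinase at 5.59 and the scaffold 29 hexokinase at 4.24 overlapped, and hexokinase 8a at 3.26 lay below both in all 3 birds. With FPKM, 6 of the 8 models kept their rank in normally-fed and 5 of the 8 in high-intake-fed livers, and in both the contig ketohexokinase moved below hexokinase 8a.

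Glucose 6-phosphate is consumed by many enzymes, and 69 other models were listed for its formation, transport and use. Of these 50 were tested by edgeR's quasi-likelihood test, 1 rose, 2 fell and 47 did not pass, where 0.643% of all models tested rose and 0.829% fell. The median log2 fold change was 0.16 in the list and 0.04 over all models tested. Groups did not overlap for 10 of the 50, a share below the 24.4% of all models tested. At an unadjusted p under 0.05 there were 4 higher and 3 lower of the 50, against 18.4% of all models in either direction.

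Entry of glucose came first. The model annotated as facilitated glucose transporter class GLUT12 (scaffold 3, 66651326 to 66659530) rose from 0.863, 1.71 and 0.644 CPM in normally-fed to 15.1, 15.03 and 7.96 CPM in high-intake-fed livers. Its log2 fold change was 3.55 ± 0.46 and its edgeR adjusted p 0.0166. The call was lost without normally-fed replicate 1 (adjusted p = 0.0783) or replicate 3 (adjusted p = 0.0784), and the adjusted p over its 15 alternatives ran from 4.1e-11 to 0.0784. The transporter named SLC2 member 2, the main glucose carrier of hepatocytes in mammals, gave 171, 157 and 146 CPM against 277, 482 and 328 CPM. Every high-intake-fed bird was higher, at a log2 fold change of 1.195 ± 0.28, but the adjusted p of edgeR's quasi-likelihood test was 0.0859. DESeq2 (adjusted p = 0.000856) and edgeR's exact test (adjusted p = 0.0125) called it. The other SLC2 transporters among the 15 smallest p values, on scaffold 5 (1.12 ± 0.55) and scaffold 17 (0.44 ± 0.23), overlapped between the groups, and without high-intake-fed replicate 2 the first of these was at 0.20.

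Glucose-6-phosphatase, which reverses the hexokinase step in the endoplasmic reticulum, gave 371, 169 and 297 CPM in normally-fed and 526, 540 and 796 CPM in high-intake-fed livers. The groups did not overlap, at a log2 fold change of 1.15 ± 0.36 and an edgeR quasi-likelihood adjusted p of 0.152, while DESeq2 called it (adjusted p = 0.0175). Like hexokinase 8b, which acts in the opposite sense, it thus stood higher in all 3 high-intake-fed birds. Groups did not overlap for 24.4% of all models tested. Within the high-intake-fed group the orders differed, with glucose-6-phosphatase highest in replicate 3 and hexokinase 8b highest in replicate 2. Per kilobase, glucose-6-phosphatase exceeded the summed hexokinases 31.1, 10.5 and 33.7 times in normally-fed livers, and 17.2, 1.17 and 7.003 times in high-intake-fed livers. The phosphatase mRNA stayed above the hexokinase mRNA in every liver, and in high-intake-fed replicate 2 they were nearly equal. That near equality is a consequence of the values hexokinase 8b was chosen by. Without hexokinase 8b, the hexokinases of that bird summed to 7.71 CPM per kilobase, against 502 for the phosphatase. The ranges of the ratio to the summed hexokinases overlapped, since high-intake-fed replicate 1 lay above normally-fed replicate 2.

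**Figure D3:**
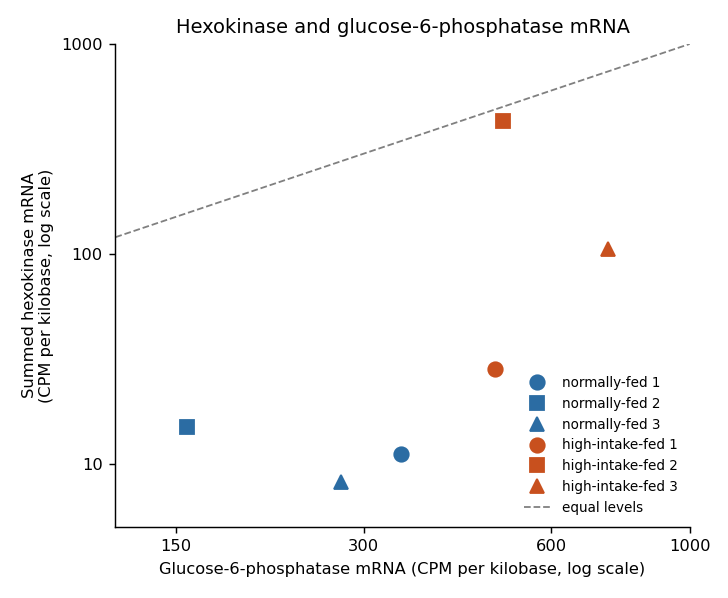
Summed mRNA of the 4 hexokinases (vertical axis) against glucose-6-phosphatase mRNA (horizontal axis), both in CPM per kilobase on log scales, 1 point per goose, with a dashed line where they are equal. Every point lies below the line, and high-intake-fed replicate 2, at 429 against 502, lies nearest to it. Hexokinase 8b, selected on its values in this comparison, makes up 98.2% of the hexokinase sum in that bird.

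Of the glycolytic models 0 of 7 tested and of the gluconeogenic models 0 of 2 passed edgeR's adjusted p, which 0.643% of all models passed upward and 0.829% downward. The counts were also 0 at an unadjusted p under 0.05, against 18.4% of all models, and by DESeq2's adjusted p, against 7.65%. The gluconeogenic models counted here were fructose-1,6-bisphosphatase and phosphoenolpyruvate carboxykinase. Glucose-6-phosphatase, which also serves gluconeogenesis, was listed under a role of its own and is not in these counts. It had an unadjusted p of 0.0119 by edgeR's quasi-likelihood test and was called by DESeq2 (adjusted p = 0.0175). With so few models, counts of 0 are near the background. The list's glycolytic models covered only glucose-6-phosphate isomerase, phosphofructokinase, 6-phosphofructo-2-kinase and pyruvate kinase. Other glycolytic enzymes were not in it, among them phosphoglycerate kinase, which the paper reports as higher in high-intake-fed geese. The paper also names PKM2 as differentially expressed. The pyruvate kinase model of the list, named PKM, overlapped between the groups (log2 fold change -0.094 ± 0.24, edgeR adjusted p 0.884). Phosphofructokinase on scaffold 11, which commits the sugar to glycolysis, gave 172, 205 and 144 CPM against 183, 640 and 219 CPM, with a log2 fold change of 1.00 ± 0.48 and an edgeR adjusted p of 0.316. A single bird, high-intake-fed replicate 2, stood far above the others, as it did for hexokinase 8b, and without it the log2 fold change was 0.21. A 6-phosphofructo-2-kinase model on scaffold 1, whose product activates phosphofructokinase, gave 25.9, 8.79 and 22.1 CPM against 14.7, 34.9 and 82.6 CPM (log2 fold change 1.22 ± 0.62), and there the highest bird was high-intake-fed replicate 3, without which the log2 fold change was 0.39. Cytosolic phosphoenolpyruvate carboxykinase, which opens gluconeogenesis, gave 79.9, 38.3 and 47.6 CPM in normally-fed and 25.0, 0.254 and 3.16 CPM in high-intake-fed livers. Its groups did not overlap, and the birds with the most hexokinase 8b had the least of it. The log2 fold change was -2.55 ± 1.114 with an edgeR adjusted p of 0.275. Without high-intake-fed replicate 1 it was -5.01 (edgeR adjusted p 0.0749), and with the replicate number as a block -3.82 (edgeR adjusted p 0.157).

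Glycogen synthase, which builds the glycogen chain, had the smallest p values of the list. The models that fell are adjacent on scaffold 1 (139943707 to 139954754 and 139965068 to 139992226) and both are named as the liver form, so they may be parts of the same gene. The first gave 140, 129 and 111.6 CPM in normally-fed and 21.9, 21.8 and 31.8 CPM in high-intake-fed livers, with a log2 fold change of -2.33 ± 0.24 and an edgeR adjusted p of 0.00613. The second gave 231, 215 and 189 CPM against 42.4, 35.01 and 49.03 CPM, with a log2 fold change of -2.33 ± 0.23 and an edgeR adjusted p of 0.00595. Unlike hexokinase 8b, these models were about equally low in all 3 high-intake-fed birds. Both calls held in all 15 alternatives. Phosphoglucomutase on scaffold 10, which links glucose 6-phosphate with glycogen, gave 640, 652 and 564 CPM against 437, 414 and 471 CPM without overlap (log2 fold change -0.49 ± 0.24, edgeR adjusted p 0.327).

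Of the routes that branch off, the model named as the bifunctional hexose-6-phosphate dehydrogenase of the endoplasmic reticulum gave 106, 106 and 89.2 CPM against 94.1, 41.1 and 50.9 CPM. Its groups overlapped, at a log2 fold change of -0.70 ± 0.32. Glucosamine-fructose-6-phosphate aminotransferase on scaffold 29, which opens the hexosamine route, gave 47.4, 51.9 and 47.2 CPM against 98.1, 114 and 64.8 CPM without overlap (0.92 ± 0.25, edgeR quasi-likelihood adjusted p 0.114). It was called by DESeq2 (adjusted p = 0.0252), by edgeR's exact test (adjusted p = 0.0424) and without high-intake-fed replicate 3 (edgeR quasi-likelihood adjusted p = 0.0269). N-acetylglucosamine kinase, another sugar kinase, gave 7.70, 7.61 and 6.25 CPM against 4.17, 4.12 and 4.92 CPM without overlap (-0.71 ± 0.26, edgeR adjusted p 0.201), and phosphomannomutase overlapped between the groups (0.95 ± 0.42).

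**Figure D4:**
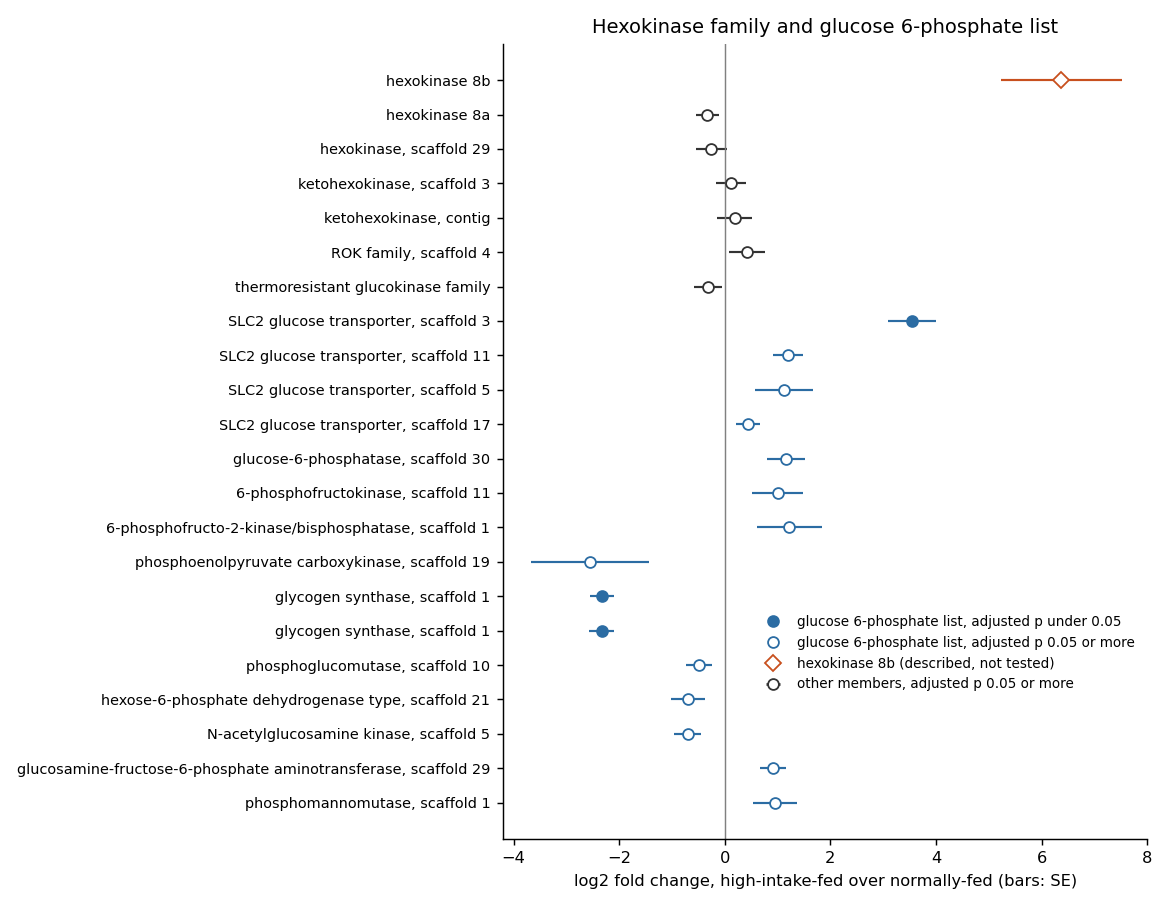
Log2 fold change of high-intake-fed over normally-fed livers (horizontal axis, bars are SE) for the 7 family models with a fitted value and the 15 models of the glucose 6-phosphate list with the smallest p. Filled points passed an adjusted p under 0.05 (both glycogen synthase models at -2.33 and the GLUT12-class transporter at 3.55), open points did not, and hexokinase 8b (diamond, 6.38) is shown without a test. Bars are worked out from the test's F statistic, and that of hexokinase 8b, a selected model, is not to be read as a test.

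The models whose levels were most like hexokinase 8b were found by the Pearson correlation of log2(CPM + 1) over the 6 birds, among 9243 models with a description. With 6 points in 2 groups many models follow the same contrast, and 95 of them had r of at least 0.95, so the correlations are a description. The most similar was a diacylglycerol acyltransferase on scaffold 1 (r = 0.995), an enzyme of the family that completes triglyceride synthesis. It gave 6.57, 6.73 and 3.99 CPM in normally-fed and 47.8, 670 and 212 CPM in high-intake-fed livers. Per kilobase it stood at 6.10, 6.25 and 3.71 in normally-fed and 44.4, 622 and 197 in high-intake-fed livers, above hexokinase 8b in every bird. Porphobilinogen synthase, an enzyme of haem synthesis (r = 0.994), was at 24.0 to 33.1 CPM in normally-fed and 40.3 to 79.0 CPM in high-intake-fed livers. A sorting nexin-type model (r = 0.994), an OTOP3-type proton channel (r = 0.994), a leucine-rich repeat model (r = 0.992) and a tetratricopeptide repeat model (r = 0.992) followed. All 6 ranked the birds exactly as hexokinase 8b did, with a Spearman rho of 1.0, but only the acyltransferase spanned a similar range.

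The most opposite models were SLC12 member 7, a potassium chloride cotransporter (r = -0.994), a model named estrogen receptor beta (r = -0.994) and a septin (r = -0.994). The estrogen receptor beta model gave 81.0, 71.7 and 91.9 CPM in normally-fed and 31.7, 12.5 and 23.6 CPM in high-intake-fed livers, the lowest in the bird with the most hexokinase 8b. Within the family r with hexokinase 8b was highest for the contig ketohexokinase, at 0.64, followed by 0.52 for the ROK family model and 0.48 for ketohexokinase of scaffold 3. It was 0.11 for the scaffold 16 hexokinase, -0.14 for the scaffold 29 hexokinase, -0.30 for the thermoresistant glucokinase family model and -0.50 for hexokinase 8a. The value for the contig ketohexokinase is uncertain, since this copy may share reads and its FPKM differed from its counts in direction. For glucose-6-phosphatase r was 0.71 and for phosphoenolpyruvate carboxykinase -0.96.

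**Figure D5:**
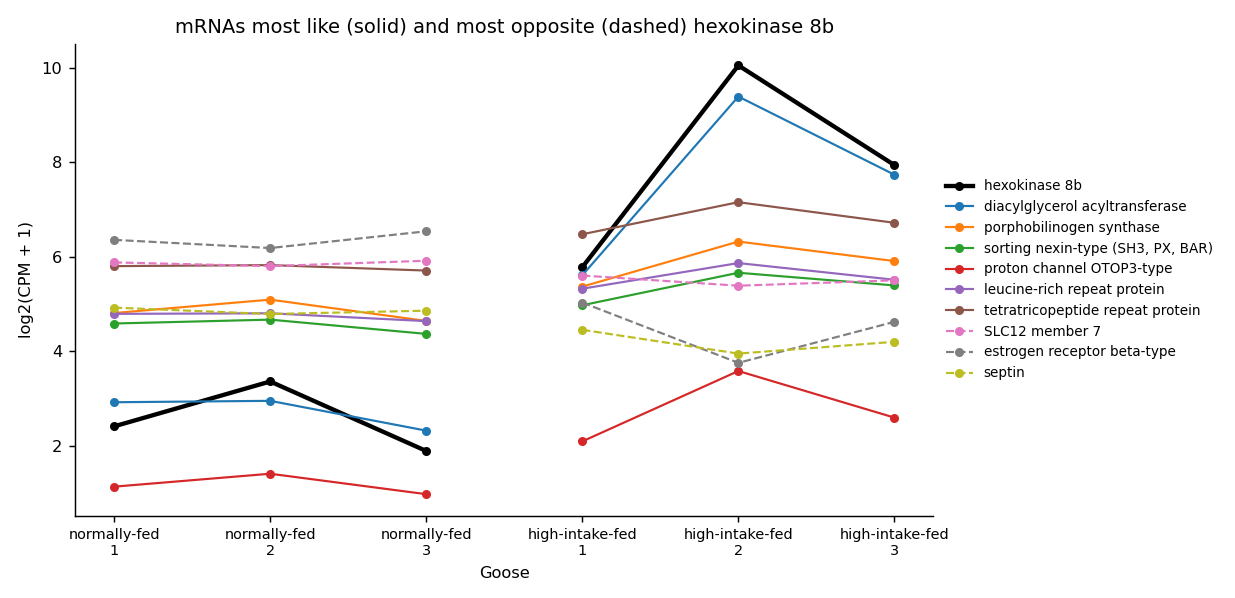
Level of hexokinase 8b (thick black line) and of the 6 most similar (solid) and 3 most opposite (dashed) models as log2(CPM + 1) in each goose. Hexokinase 8b and the diacylglycerol acyltransferase, at 1058 and 670 CPM in high-intake-fed replicate 2, cover the widest range, and the order of the 3 high-intake-fed birds is mirrored in the dashed lines.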

How the data were processed

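The members and lists were chosen with earlier results of these data known. Ribosomal RNA was depleted with probes and libraries kept strand. The authors filtered ribosomal reads (Bowtie2), mapped the rest (HISAT2) and deposited raw counts and FPKM for each model. FastQC and BWA also appear in the submitters' processing notes. Mapping was to a goose genome, with build and annotation version not given in the sources used here. Which program and strand setting gave the mRNA counts is not stated clearly: StringTie is named for gene-level quantification in the circular RNA work and HTSeq in the functional analysis. All 21009 model lengths are multiples of 3, so they are coding lengths.

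Counts were tested with edgeR 4.0.16 (R 4.3.3): TMM, the quasi-likelihood test without covariates and filterByExpr (at least 10 counts, 15 in total), which left 12914 models, with Benjamini-Hochberg adjustment at 0.05. Each SE of a log2 fold change was the size of that change divided by the square root of the quasi-likelihood test's F statistic. Single values were compared by two-sided exact permutation of 3 birds against 3. P-values measure the spread between the birds sequenced. The script was tested on simulated data with changes planted only in models with a mean of at least 20 counts. All simulated models shared the same biological coefficient of variation, 0.3565, whereas real models differ in spread. In that setting the test recovered 1 of 50 models at 1.5-fold, 7 of 50 at 2-fold, 44 of 50 at 4-fold and 50 of 50 at 8-fold. Recovery for models with fewer counts or a larger spread was not tested. Changes of 2-fold or less were thus mostly missed there, so a model that did not pass may still differ by that much. The alternatives tried were RLE factors, unscaled library size, removal of the 20 most abundant models, DESeq2 1.42.0, limma 3.58.1 trend on log2(CPM + 1), the exact test of edgeR, dropping the filter, requiring 10 counts in each library, a replicate block and each bird left out.

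Named were every member, their neighbours, of the glucose 6-phosphate list the models past the threshold and then those with the smallest p to 15, and the 6 highest and 3 lowest correlations with hexokinase 8b among models with a mean of at least 5 CPM in the higher group. The pyruvate kinase model was named in addition because the paper names PKM2. Gene names of the RefSeq annotation (Taihu goose) were used for gene order only.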

Additional observations from a re-analysis of the deposited data

How the results depend on the processing

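The count of 0 called among the 6 tested family models found by description was also 0 in all 15 alternatives, leaving out each bird included (range 0 to 0). Of the glucose 6-phosphate list, 3 models were called with edgeR's quasi-likelihood test, 6 with DESeq2 and 5 with edgeR's exact test, and from 2 to 4 when each bird was left out. Over all models tested the calls numbered 190, against 986 with DESeq2, 809 with edgeR's exact test, 335 without a filter and from 30 to 511 when each bird was left out. Leaving out each bird, the log2 fold change ran from -0.47 to 0.067 for the scaffold 29 hexokinase, from -0.17 to 0.27 for ketohexokinase of scaffold 3 and from -0.015 to 0.70 for the ROK family model. The sign turned without normally-fed replicate 2 for the first, without normally-fed replicate 3 (-0.0077) or high-intake-fed replicate 2 for the second, and without high-intake-fed replicate 2 for the third. Hexokinase 8b ranged from 4.77 to 7.03 on the log2 scale. With FPKM the ratio of group means of the contig ketohexokinase moved to 0.330, and 6 and 5 of the 8 models kept their rank in normally-fed and high-intake-fed livers. The 6 most similar models all kept a correlation with hexokinase 8b of at least 0.9 by rank and by FPKM, and of the 3 most opposite ones SLC12 member 7 moved from -0.994 to -0.849 by FPKM. The cause was not tested for any of these. Birds share replicate numbers only: the deviations of same-numbered birds correlated at -0.16, 0.03 and -0.18. With the replicate number as a block, 0 of the 6 family models, 3 of the list and 61 of all models were called, and hexokinase 8b stood at 5.73. At 14154910 to 16993373 counts per library, depth limited the scaffold 16 hexokinase, with at most 11 counts.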

Other observations

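A model with an ADP-dependent glucokinase domain (ADPGK_ADPPFK, scaffold 13, 12698338 to 12705639) carries neither word of the rule in its description and was added after its values were seen. ADP-dependent glucokinase phosphorylates glucose with ADP in place of ATP. It gave 8.30, 12.6 and 10.8 CPM in normally-fed and 11.4, 22.8 and 9.60 CPM in high-intake-fed livers. The groups overlapped, and high-intake-fed replicate 2 was again the highest bird. Its log2 fold change was 0.47 ± 0.36 with an edgeR adjusted p of 0.544.

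The cyclic nucleotide-dependent kinase models beside the ketohexokinases stood higher in all high-intake-fed birds at both places. Next to the scaffold 3 model the kinase was at 5.31, 4.66 and 4.76 CPM in normally-fed and 9.93, 19.4 and 8.99 CPM in high-intake-fed livers (log2 fold change 1.38 ± 0.34, edgeR adjusted p 0.0953). Next to the contig model it was at 1.195, 1.48 and 1.159 CPM against 2.57, 5.07 and 3.52 CPM (1.54 ± 0.40, edgeR adjusted p 0.108). In both places the groups did not overlap, as for 24.4% of all models tested, and those of the adjacent ketohexokinases did. Because the ketohexokinase loci may be copies of the same locus, the kinase models may be the same gene.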
